A study of Mus musculus with 29 samples.

Results

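The genes described here encode the cytosolic factors of translation initiation (Eif) and elongation (Eef) in mouse embryos. They were found by symbol: rows that begin with Eif1 to Eif6, Eef1 or Eef2, without the eIF2 kinases (Eif2ak), the eIF4E binding proteins (Eif4ebp) and the Y-linked Eif2s3y. The rule took 58 of the 23337 genes in the count files. Of these, 4 rows (Eif2c1 to Eif2c4) carry older symbols of the Argonaute genes Ago1 to Ago4, which act in RNA silencing, and they were kept apart. The other 54 are factor genes, and 51 of them passed the filter on low counts in every comparison. The remaining 3 were Eif3j, with 0 counts in all 29 libraries, Eef1a2, with at most 3 counts in any library, and Eif4e1b, with at most 1. Eif3j is listed as Eif3j1 in GENCODE M21. Of its transcript's words of 50 bases, 54.8% occur in other genes, and 39.4% in Eif3j2 alone. A count of 0 does not show that it is silent, and the reason for it was not tested. Eef1a2 and Eif4e1b stood at or below the floor of 3 counts.

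Protein synthesis starts when eIF2, a trimer that binds GTP and the initiator tRNA, loads that tRNA on the small ribosomal subunit with the help of eIF1, eIF1A, eIF5 and the large scaffold eIF3. The complex eIF2B recharges eIF2 with GTP and is the step that eIF2 kinases block in the integrated stress response, in which the transcription factor ATF4 is made. The cap-binding complex eIF4F joins the cap-binding protein eIF4E, the scaffold eIF4G and the RNA helicase eIF4A, and the kinase mTORC1 controls it through the eIF4E binding proteins. In elongation, eEF1A brings each aminoacyl-tRNA to the ribosome, eEF1B recharges eEF1A, and eEF2 moves the ribosome along, which the kinase Eef2k slows.

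RNA sequencing libraries came from C57BL/6 embryos of embryonic day 9.0 with a Dll1-YFP lineage mark, in which YFP follows cells of the Dll1 lineage, mainly paraxial mesoderm. Fresh YFP+ cells were collected by flow sorting from the presomitic mesoderm with the newest somite (SOMA, 3 libraries), somites 2 to 5 (SOMB, 4), somites 6 to 9 (SOMC, 4) and the somites from 10 on (SOMD, 4, whose last somite differs between labels). YFP+ cells of cultured presomitic mesoderm came from explants without added factors (CTRL, 4) or with LDN, an inhibitor of BMP receptors, and SAG, which activates the hedgehog transducer Smoothened (DIR, 4). Trunk tissue of embryos labelled mutant (MUT, 3) and wild type (WT, 3) was not sorted; the labels do not state the mutation, and the lncRNA PEAT is named in the series' title. All embryos carried the lineage mark, per the labels. The labels do not say that replicates came from separate embryos, so p-values measure the spread between these libraries, which may be technical.

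The libraries held 11541131 to 44363411 reads counted in genes. Reads in no feature made 6.54 to 12.8%, and alignments that were not unique 38.8 to 40.6% in MUT and WT but 15.9 to 25.4% in the other libraries. The libraries SOMC replicates 1 and 4 differed by little more than sampling noise (chi-square per degree of freedom 1.95), as did SOMD replicates 1 and 4 (1.91), against at least 9.24 in every other pair. They were kept as separate libraries in the counts below and summed in an alternative. Markers of paraxial mesoderm were present in all groups, with 6 to 8 of 8 at 1 CPM or more. Erythroid markers summed to 970 to 2706 CPM in MUT and WT and to at most 84.7 CPM elsewhere. In bulk RNA, fewer cells of a type and less RNA per cell cannot be told apart.

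Levels below are CPM (the usual scaling of each library's counts to a common total of reads in genes) after TMM scaling over all 29 libraries. A difference is a log2 fold change from edgeR's quasi-likelihood test, and "called" means a Benjamini-Hochberg adjusted p below 0.05 over all genes tested. The comparisons SOMB, SOMD and CTRL against SOMA share the 3 SOMA libraries, and DIR against CTRL shares the CTRL libraries with the last of these, so their values are given side by side and no overlap is read from them.

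Sequences at the RefSeq start sites are shown first, because mRNAs of the translation machinery often begin with an unbroken run of pyrimidines (the 5′ terminal oligopyrimidine motif), through which mTORC1 controls their translation. Of the 11 factor genes called between cultured and fresh cells (below), the 7 shown have 1 start in the RefSeq table of GRCm38.p6. Each window runs 5′ to 3′ on the transcribed strand from 10 bases before the start to 20 bases from it on, so the start is base 11, and capitals mark the longest run of C or T. The first pair was higher in culture, the others lower.

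Eif4b: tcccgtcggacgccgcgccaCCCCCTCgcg

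Eif3f: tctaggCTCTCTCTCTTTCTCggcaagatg

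Eif3b: ggcgcgcggtgaCTTCTgggagtcggaagc

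Eif4g1: gcgcagctccgCCCTCTgcgccggtcacgt

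Eif2b5: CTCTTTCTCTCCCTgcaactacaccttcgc

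Eif4a1: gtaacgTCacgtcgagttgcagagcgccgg

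Eif1b: gcgcggggCTaaatacgcggcgccggccat

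The windows lie at chr15:102073763-102073792 (plus strand) for Eif4b, chr7:108934405-108934434 (plus) for Eif3f, chr5:140419295-140419324 (plus) for Eif3b and chr16:20672717-20672746 (plus) for Eif4g1. Those of Eif2b5, Eif4a1 and Eif1b lie at chr16:20498807-20498836 (plus), chr11:69672404-69672433 (minus) and chr9:120492596-120492625 (plus). The run was 15 bases long in Eif3f, 14 in Eif2b5, 7 in Eif4b, 6 in Eif4g1, 5 in Eif3b, and 2 in both Eif4a1 and Eif1b. The run of Eif3f spans the start and that of Eif2b5 ends just after it. A run of at least 8 bases, each C or T, on the transcribed strand stood in 6 of the 37 factor genes with 1 listed start (16.2%), and in 3693 of 32851 RefSeq starts of all genes (11.2%). In culture against fresh cells, the 6 genes with such a run had a median log2 difference of −0.27, and 2 of them were positive. The 29 tested genes with a shorter run had a median of −0.14, and 9 of them were positive. A run is a description of these letters and shows nothing about how the mRNAs were translated, which was not measured.

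Subunits of the same complex did not have equal mRNA levels. Per kilobase of transcript, in CPM per kb, the 12 tested genes of eIF3 in SOMA ran from 89.7 for Eif3f to 265 for Eif3i, a ratio of 2.95, around a median of 198. The 3 genes of eIF2 ran from 87.2 for the alpha subunit Eif2s1, the target of the eIF2 kinases, to 148 for the beta subunit Eif2s2, a ratio of 1.69. The 5 genes of eIF2B ran from 16.3 for the gamma subunit Eif2b3 to 67.3 for the catalytic epsilon subunit Eif2b5, a ratio of 4.14. These complexes thus held all their tested genes within a ratio of 4.14 in SOMA, which leaves out Eif3j. Lengths were those of the longest transcript linked to a RefSeq mRNA, where any was, so ranks and ratios depend on that choice. In CPM not divided by length, Eif2b3 (61.0) stood above Eif2b4 (52.9) in SOMA.

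The cap complex was less even, and among the eEF1B genes the wide spread rested on Eef1e1. Within eIF4F, the helicase Eif4a1 stood at 1038 CPM per kb in SOMA, the scaffold Eif4g1 at 267 and the cap-binding Eif4e at 60.1, so that the highest was 17.3 times the lowest. In eEF1B, Eef1g stood at 766 and Eef1b2 at 503, against 182 for Eef1d and 30.0 for Eef1e1, which is better known as a part of the multi-tRNA synthetase complex. Eef1a1, which delivers tRNA, was the highest of all members at 5116, and Eef2, the translocase, stood at 1029 against 4.61 for its kinase Eef2k. Eif5a, which relieves ribosomes stalled on difficult peptide bonds, stood at 1118 and its paralogue Eif5a2 at 7.96. Eef1a1, Eef1g, Eif1, Eif2s2, Eif2s3x, Eif3e, Eif3h, Eif3m, Eif4a1 and Eif4a3 share at least 20% of their transcript words with other genes, mostly processed copies, so their levels are uncertain.

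**Figure D1:**
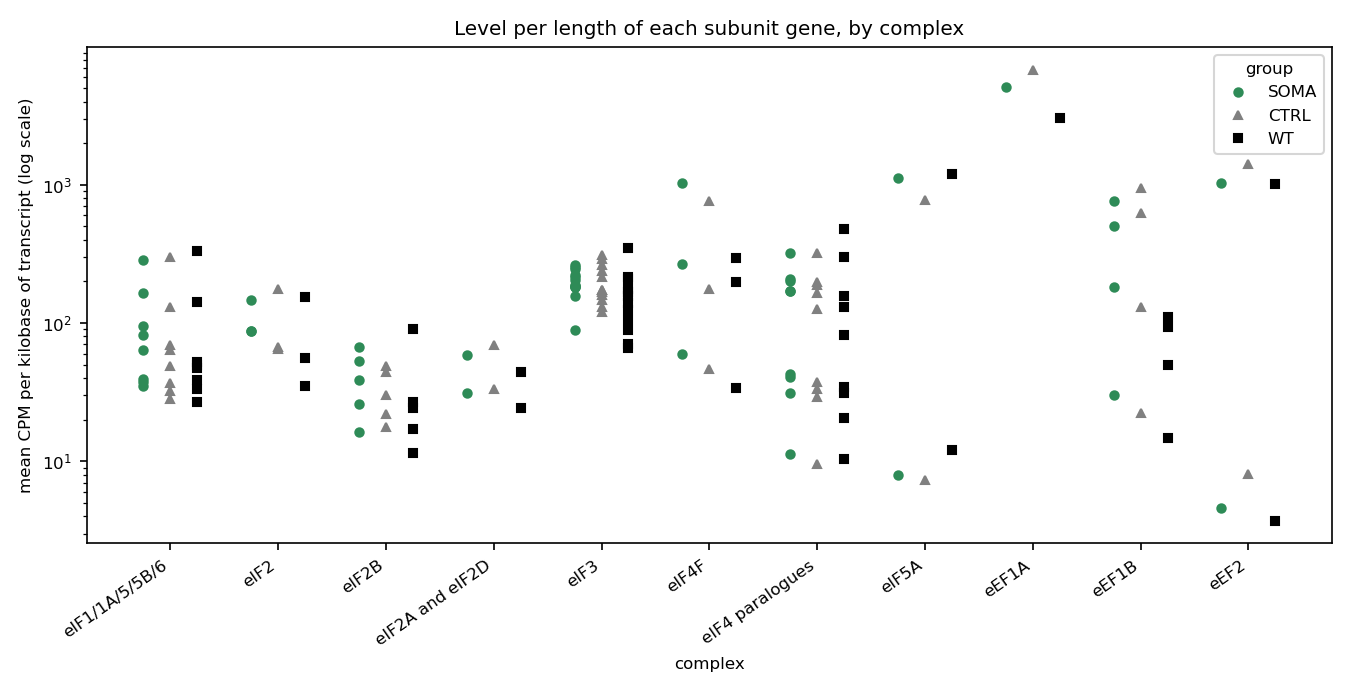
Mean level of each factor gene per kilobase of transcript (CPM per kb, log scale) by complex, with 1 point per gene in each of SOMA, CTRL and WT. The eIF3 genes lie close together in SOMA (ratio of highest to lowest 2.95), while eIF4F spans a ratio of 17.3 and eEF1B a ratio of 25.5. The lowest eEF1B gene there is Eef1e1, and the others run from 182 to 766 CPM per kb.

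The spread within a complex was wider in the trunk tissue than in the sorted cells for these 3 complexes. In WT the ratio of highest to lowest was 5.28 in eIF3 (Eif3m 348 and Eif3f 65.9 CPM per kb), 4.46 in eIF2 (Eif2s2 156 and Eif2s3x 34.9) and 7.89 in eIF2B (Eif2b5 91.3 and Eif2b4 11.6). In eIF4F it was lower, at 8.70, and in eEF1B 7.54, again with Eef1e1 as the lowest gene of eEF1B. The share of alignments that were not unique was highest in the same libraries, and its part in these ratios was not tested.

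Levels of subunits moved together between libraries of 1 group in some complexes. Over the 15 fresh sorted libraries, with each group's mean taken out, the median Pearson r over pairs of genes was 0.913 in eIF3 (66 pairs), 0.887 in eIF2 (3 pairs), 0.802 in eIF2B (10 pairs) and 0.908 in eEF1B (6 pairs). Over all 1275 pairs of factor genes it was 0.694. In eIF4F the median was −0.25, with pairs from −0.58 to 0.85. Pairs within eIF3 ran from −0.33 to 0.993. In the 8 cultured libraries the medians were 0.573 in eIF3, 0.8 in eIF2, 0.33 in eIF2B, 0.8 in eEF1B and −0.24 in eIF4F, against 0.342 over all pairs. The eIF3 pairs ran from −0.949 to 0.995 there. Genes of a pair are read in the same libraries, of which 2 pairs hold nearly the same counts.

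Along the somite series most factor genes differed little. Between SOMB and SOMA 1 of 51 was called, lower in SOMB, and 34 were positive, with a median log2 difference of 0.02. That balance was not stable: 13 of 51 were positive with the share of no-feature reads as a covariate, 16 with the replicate block and these groups alone, 17 without SOMA replicate 1 and 16 without SOMB replicate 2. Over all genes 8.67% were called there (4.55% lower). From SOMB to SOMC 0 of 51 were called by edgeR and 0 by DESeq2, with 2 at an unadjusted p below 0.05 by edgeR, beside 0.827% and 2.07% of all genes called by these tools. In that step 46 of 51 differences were negative (median −0.11), as were 74 of 76 ribosomal protein genes (median −0.11). With the no-feature covariate 28 of 51 were negative (median −0.01) and 27 of 76 ribosomal protein genes (median 0.02). From SOMC to SOMD 0 were called by either tool, with 0 at an unadjusted p below 0.05 by edgeR, beside 2.34% and 3.60% of all genes, and the median was −0.03. Between the ends of the series, SOMD against SOMA, 2 of 51 were called, both lower, beside 19.8% of all genes (8.92% lower), and the median was −0.09. Libraries of the end groups did not overlap for 5 genes lower in SOMD and 0 higher, that is 9.80% and 0% of the 51, beside 13.8% and 14.6% of all genes.

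**Figure D2:**
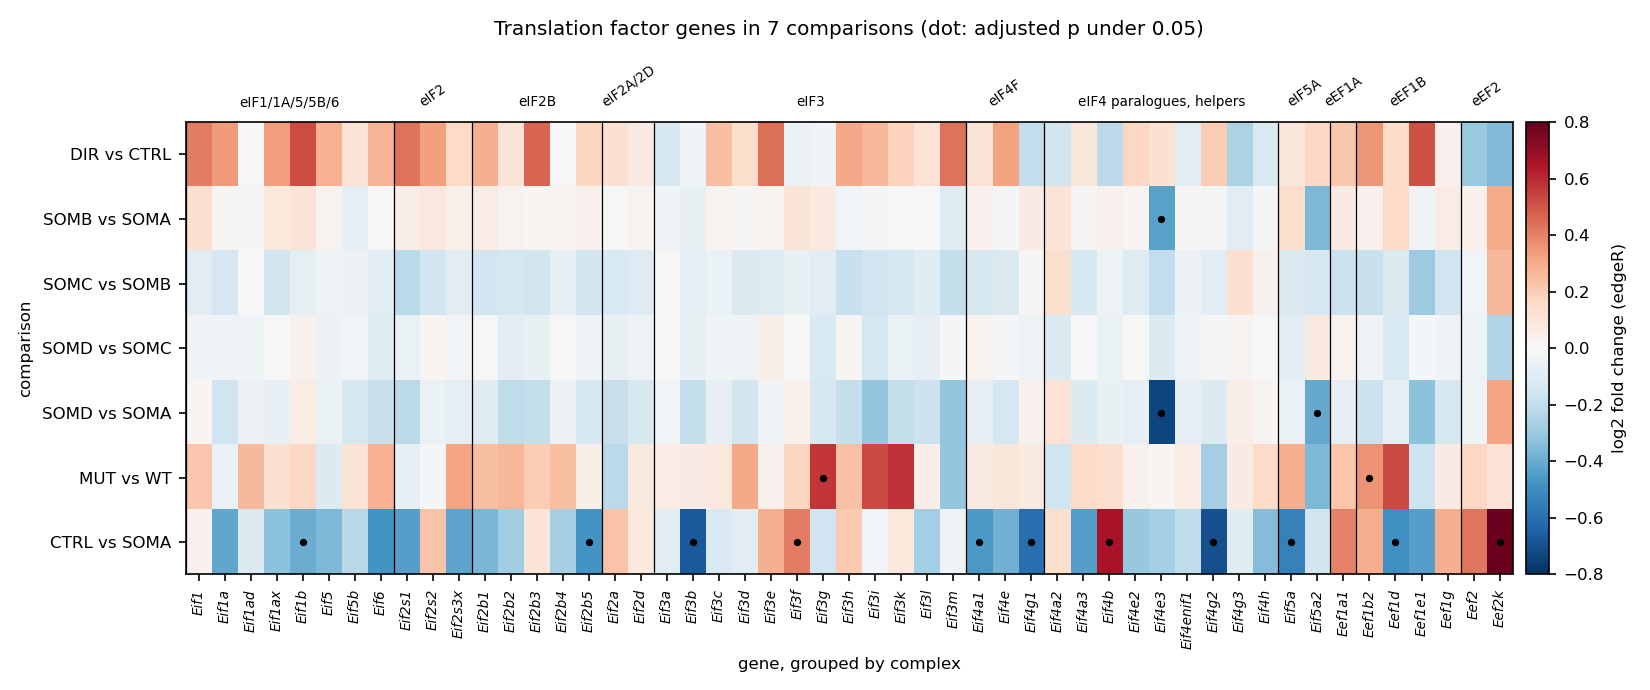
Log2 fold change of each tested factor gene (columns, grouped by complex) in the 7 comparisons (rows), with the first-named group over the second and a dot where the adjusted p is below 0.05. The dots lie mostly in CTRL against SOMA, with 11 of 51 genes, against at most 2 in every other comparison. Of all genes, 20.8% were called in CTRL against SOMA, near the share of the factor genes. In the other comparisons from 0.338% (MUT against WT) to 19.8% (SOMD against SOMA) of all genes were called.

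Eif4e3 (chromosome 6, 99625135 to 99666771 in GRCm38), an atypical cap-binding paralogue of Eif4e, fell from the presomitic mesoderm on. Its level was 27.7, 26.7 and 31.5 CPM in SOMA, 21.5, 21.4, 20.1 and 22.5 in SOMB, 19.9, 16.1, 17.7 and 20.4 in SOMC, and 17.4, 15.6, 17.2 and 18.2 in SOMD. Every SOMA library lay above all 12 others, and SOMD did not overlap SOMB. The log2 difference was −0.43 ± 0.09 (SE, n = 4 and 3) in SOMB against SOMA and −0.73 ± 0.09 (n = 4 and 3) in SOMD against SOMA, with adjusted p-values of 0.0069 and 3.28e-05 (edgeR's quasi-likelihood test, Benjamini-Hochberg). The step from SOMB to SOMC was −0.19 with an adjusted p of 0.393 in the same edgeR fit.

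The fall of Eif4e3 by SOMD was called without each library in turn (adjusted p at most 0.000377, edgeR). Without SOMA replicate 4 the SOMB against SOMA difference was −0.34 with an adjusted p of 0.0685. The SOM libraries split by the share of reads in no feature, with 6 libraries at 12.0% or more and 9 at 10.7% or less, and SOMD against SOMA was −0.62 within the former and −0.81 within the latter. The former holds 1 SOMA library and 2 SOMD libraries that are nearly the same, so it is in effect 1 library against 1, with no test. Canonical Eif4e, in contrast, ranged from 250 to 347 CPM over all 15 libraries and was not called along the series.

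Eif5a2 (chromosome 3, 28781276 to 28798846), the less abundant paralogue of Eif5a, was the other factor gene lower at the end of the series. It stood at 34.4, 40.0 and 45.6 CPM in SOMA, 34.2, 30.6, 26.4 and 33.9 in SOMB, 25.7, 28.8, 30.9 and 28.3 in SOMC, and 26.7, 29.6, 34.0 and 29.6 in SOMD. All SOMD libraries lay below all SOMA libraries, the highest of them narrowly, and SOMC and SOMD overlapped. In SOMD against SOMA the log2 difference was −0.41 ± 0.11 (SE, n = 4 and 3, adjusted p = 0.0144, edgeR). In SOMB against SOMA it was −0.36 ± 0.11 with an adjusted p of 0.0558.

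The call on Eif5a2 rested on single libraries. It was lost without SOMA replicate 4 (log2 difference −0.30, adjusted p = 0.124, edgeR) or SOMD replicate 1 (−0.36, adjusted p = 0.0509), and with nearly identical libraries summed the adjusted p was 0.0507. Within the libraries of higher and of lower no-feature share the log2 difference of SOMD against SOMA was −0.29 and −0.42. That of SOMB against SOMA was −0.01 and −0.50. At the higher share, SOMB against SOMA is 1 library against 1, and SOMD against SOMA is so in effect. Eif5a itself ranged from 1498 to 2096 CPM and was called in no step without the replicate block.

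**Figure D3:**
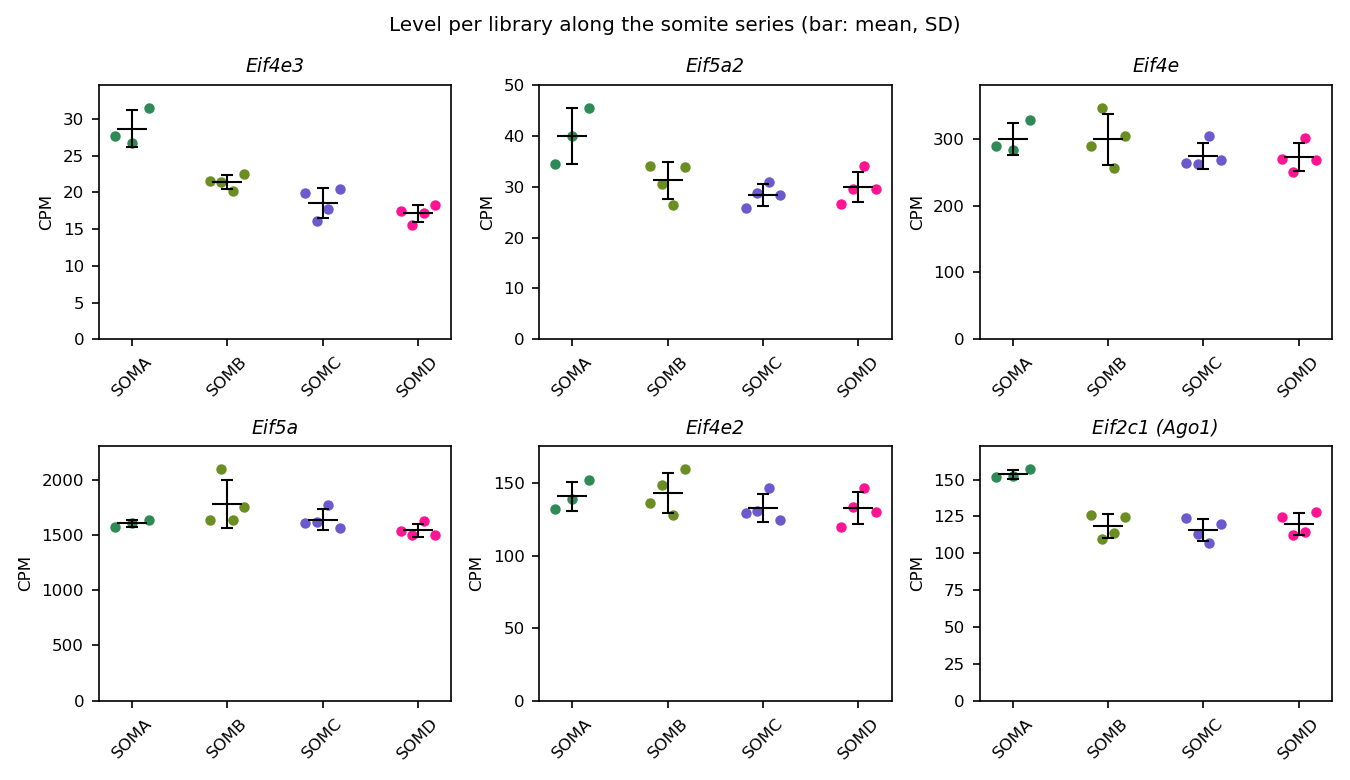
Level in CPM per library (points, with the mean and SD as bars) of Eif4e3, Eif5a2, their paralogues and the Argonaute gene Eif2c1 (Ago1) in SOMA, SOMB, SOMC and SOMD. Eif4e3 falls from 28.7 in SOMA to 17.1 in SOMD, while Eif4e stays between 250 and 347.

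With the replicate number as a block and only the compared groups in the fit, which the same-number correlations in the first and last steps allow, more genes were called; with all 4 SOM groups in the blocked fit the counts were 1 and 0 (8.30% and 2.77% of all genes), as without the block. In SOMB against SOMA 5 of 51 were called (18.3% of all genes in that fit): Eef2k and the helicase Eif4a2 were higher, by 0.31 and 0.16 on the log2 scale, and Eif3m, Eif4e3 and Eif5a2 lower, by −0.19, −0.42 and −0.33. In SOMD against SOMC 6 were called, all lower (16.4% of all genes): Eef1d, Eef2k, Eif3g, Eif3i, Eif4a2 and Eif5a, by between −0.09 for Eif5a and −0.26 for Eef2k. Replicates 1 and 4 are nearly the same library in SOMC and again in SOMD, so the 4 blocks of that fit are in effect 3. The share called among the members was near or below that of all genes in both. With that no-feature share as a covariate, 5 of 51 were called in SOMB against SOMA (12.3% of all genes) and 7, all lower, in SOMD against SOMA (26.5%), among them Eif3i, Eif3k, Eif3l and Eif3m.

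Of the 4 Argonaute rows, Eif2c1 (Ago1) was lower in the somites. It stood at 152, 152 and 157 CPM in SOMA and at 126, 109, 114 and 125 in SOMB, without overlap, a log2 difference of −0.38 ± 0.07 (SE, n = 4 and 3, adjusted p = 0.00235, edgeR). In SOMD it stood at 125, 112, 115 and 128 CPM, again below all SOMA libraries.

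Of the 7 comparisons tested, CTRL against SOMA had the most factor genes called, at a share near that of all genes in either direction together. This sets presomitic mesoderm cells after culture beside fresh ones, and culture, time, handling and batch cannot be told apart in it. Of 51 factor genes 3 were higher and 8 lower in CTRL, beside 20.8% of all genes called (12.0% higher, 8.80% lower). The median log2 difference was −0.21, and 16 were positive. Libraries did not overlap for 3 genes higher and 16 lower in CTRL, that is 5.88% and 31.4% of the 51, beside 19.2% and 16.0% of all genes. Ribosomal protein genes went the other way, with 8 of 76 higher, 0 lower, 72 positive and a median of 0.33. Endothelial markers summed to 214 to 280 CPM in CTRL and 49.5 to 193 in SOMA, paraxial mesoderm markers to 488 to 799 and 1053 to 1127, and their part in these differences was not tested.

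The cap complex was lower in all 3 subunits. Eif4g1 (chromosome 16, 20668313 to 20692884), its scaffold, stood at 983, 826, 1001 and 1044 CPM in CTRL and at 1465, 1446 and 1442 in SOMA. The groups were far apart, and the 12 libraries of later somites (1412 to 1621) and the 4 DIR libraries (812 to 930) lay on the same sides. The log2 difference was −0.61 ± 0.13 (SE, n = 4 and 3, adjusted p = 0.0100, edgeR). The helicase Eif4a1 stood at 1362, 1529, 1303 and 1232 in CTRL and at 1679, 1790 and 2054 in SOMA, also without overlap, with a log2 difference of −0.46 ± 0.13 (adjusted p = 0.0358, edgeR). Eif4e differed by −0.38 without overlap and missed the threshold (adjusted p = 0.0779). The median of the 3 was −0.46.

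Helpers of the cap complex moved in both directions. Eif4b (chromosome 15, 102073773 to 102097173), which stimulates the helicase, stood at 1258, 1314, 1256 and 1125 CPM in CTRL and at 712, 792 and 823 in SOMA. All CTRL libraries were higher, as were the DIR libraries (1072 to 1097), and the 12 later somite libraries (696 to 825) stood with SOMA. Its log2 difference was 0.66 ± 0.12 (SE, n = 4 and 3, adjusted p = 0.00572, edgeR). Eif4g2, an eIF4G relative that serves cap-independent initiation, was lower: 2121, 1444, 1524 and 1285 in CTRL against 2573, 2423 and 2687 in SOMA, a log2 difference of −0.70 ± 0.18 (adjusted p = 0.0219, edgeR). CTRL replicate 1 stood far above the other 3 CTRL libraries for this gene.

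Among the 12 eIF3 genes 1 rose, 1 fell and the median was −0.06. Eif3b (chromosome 5, 140419328 to 140443360), a core scaffold subunit, stood at 373, 388, 401 and 373 CPM in CTRL and at 512, 616 and 687 in SOMA, without overlap, with a log2 difference of −0.67 ± 0.13 (SE, n = 4 and 3, adjusted p = 0.00622, edgeR). Eif3f, a regulatory subunit, stood at 265, 313, 322 and 316 in CTRL and at 213, 224 and 240 in SOMA. Its difference was 0.41 ± 0.11 (adjusted p = 0.0305, edgeR), and CTRL replicate 1 was the lowest of CTRL. The ratio of the highest to the lowest eIF3 gene per kilobase was 2.58 in CTRL.

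Recycling of eIF2 and single factors gave fewer calls. Eif2b5, the exchange factor's catalytic subunit, stood at 129, 136, 121 and 113 CPM in CTRL and 152, 170 and 194 in SOMA, without overlap, a log2 difference of −0.48 ± 0.12 (SE, n = 4 and 3, adjusted p = 0.0203, edgeR). The other 4 eIF2B genes were not called, and the median of the 5 was −0.28. The eIF2 subunits Eif2s1 and Eif2s3x differed by −0.44 and −0.42 and missed the threshold (adjusted p = 0.0502 and 0.0535, edgeR). Of the 8 genes of the eIF1, eIF1A, eIF5, eIF5B and eIF6 group, Eif1b, a paralogue of the start-codon selecting Eif1, was lower at 61.0, 72.4, 70.2 and 59.0 against 83.3, 80.5 and 92.3, by −0.40 ± 0.12 (adjusted p = 0.0404, edgeR).

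Of the elongation genes, Eef2k (chromosome 7, 120842831 to 120907450), the kinase that inhibits eEF2, was higher in CTRL. It stood at 52.0, 49.4, 57.1 and 53.4 CPM in CTRL and at 38.7, 27.7 and 24.6 in SOMA, a log2 difference of 0.79 ± 0.16 (SE, n = 4 and 3, adjusted p = 0.00994, edgeR). SOMA replicate 1 was the nearest to CTRL. The DIR libraries, at 44.7, 49.1, 30.3 and 43.3, overlapped SOMA, and SOMC replicates 1 and 4 reached 54.0 and 51.6, so later somites overlapped CTRL. Eef1d, a nucleotide exchange subunit of eEF1B, was lower at 289, 343, 290 and 292 against 366, 424 and 474, by −0.49 ± 0.12 (adjusted p = 0.0223, edgeR). Eif5a was lower at 844, 1307, 1196 and 1131 against 1576, 1605 and 1639, by −0.54 ± 0.15 (adjusted p = 0.0354, edgeR). Eef2 and Eef1a1 were higher on average, by 0.43 and 0.39, with overlapping groups and adjusted p-values of 0.116 and 0.147 (edgeR).

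**Figure D4:**
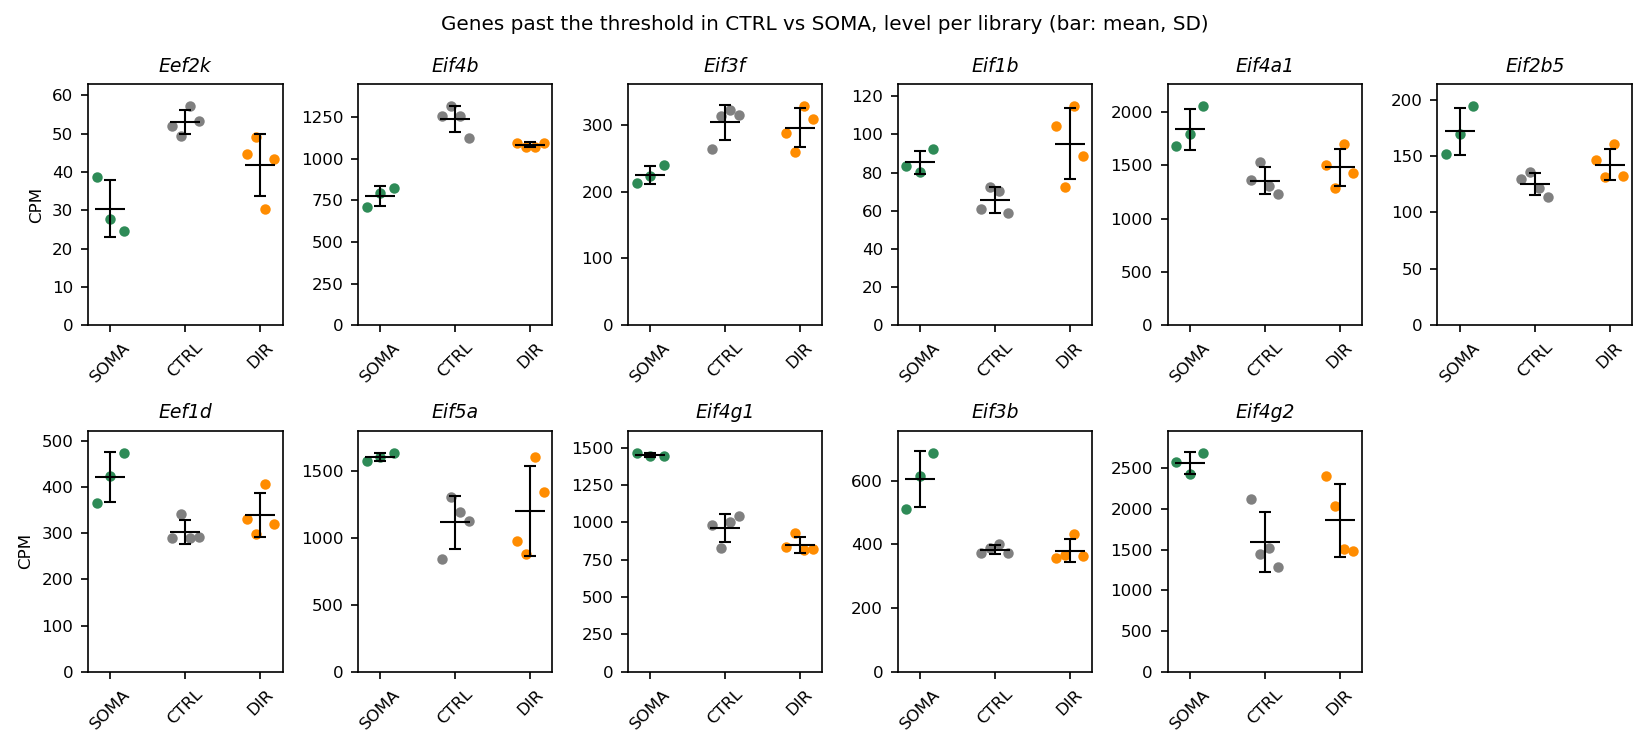
Level in CPM per library (points, with the mean and SD as bars) of the 11 factor genes called in CTRL against SOMA, in SOMA, CTRL and DIR. Eif4b, Eef2k and Eif3f lie higher in CTRL than in SOMA in every library, and the other 8 genes lie lower in every library.

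These calls were sensitive to single libraries. Eif3b, Eif4b and Eif4g1 were called without each library in turn, with adjusted p-values of at most 0.0375, 0.0305 and 0.046 (edgeR). Eef2k was lost without SOMA replicate 4 (adjusted p = 0.0527). Eef1d and Eif2b5 were lost without CTRL replicate 3, CTRL replicate 4, SOMA replicate 3 or SOMA replicate 4 (adjusted p up to 0.11 and 0.106), and Eif1b, Eif4a1 and Eif5a without any of these or SOMA replicate 1 (up to 0.171, 0.155 and 0.117). Eif3f and Eif4g2 stayed below the threshold only without CTRL replicate 1 among the 7 libraries (otherwise up to 0.115 and 0.0882). The number called ran from 3 without SOMA replicate 4 (8.20% of all genes) to 25 without CTRL replicate 1 (38.6%), and was 18 by DESeq2 (25.1% of all genes).

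Genes that control or surround the factors were described by lists, chosen with earlier results of these data known. In CTRL against SOMA 18 of 20 ATF4 targets were higher and 0 lower, with a median log2 difference of 1.35. Of all genes 12.0% were called higher and 8.80% lower there. Pck2, a mitochondrial carboxykinase, stood at 154 CPM in CTRL and 17.6 in SOMA (3.12 ± 0.18, SE, adjusted p = 2.92e-05, edgeR). Chac1, a glutathione-degrading enzyme, stood at 58.0 and 0.181 (8.32 ± 0.49, adjusted p = 3.82e-05, edgeR), and Trib3, a pseudokinase induced in stress, at 32.6 and 0.946 (5.10 ± 0.33, adjusted p = 5.47e-05, edgeR). Of 22 cytosolic aminoacyl-tRNA synthetases, many of them ATF4 targets as well, 10 were higher and 3 lower, with a median of 0.14; Sars and Cars were higher by 1.34 and 1.04 (both adjusted p = 0.000386, edgeR). The factor genes had a median of −0.21 in libraries where that of the ATF4 targets was 1.35.

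The remaining lists are small and are read against the 12.0% of all genes higher and 8.80% lower. Of 10 inhibitors of initiation and regulators of eIF2 phosphorylation, 3 were higher and 1 lower. Pdcd4, which sequesters eIF4A, was higher by 0.72 and Eif2ak1, the heme-regulated eIF2 kinase, lower by −0.63 (adjusted p = 0.00347 and 0.0055, edgeR). Ppp1r15a, which directs the eIF2 phosphatase, was higher by 0.87 (adjusted p = 0.0187, edgeR). Eif4ebp1, which sequesters eIF4E, was the third that was higher, at 173 and 78.2 CPM, a log2 difference of 1.13 ± 0.33 (SE, adjusted p = 0.0403, edgeR), and was named after its values were seen. Of the other lists, 1 of 16 genes of mTORC1 and S6 kinase was higher (Rragc), 1 of 10 of the MYC family (Mxi1), and 1 of 8 of termination and recycling was lower (Denr), with a median of −0.40. Lower were also 2 of 10 mitochondrial translation factors (Gfm1 and Tufm) and 1 of 10 enzymes that modify factors (Dph3), and 0 of 7 poly(A) binding genes were called.

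Along the somite series the lists held 5 called genes of 112 in SOMB against SOMA and 12 of 112 in SOMD against SOMA, beside 8.67% and 19.8% of all genes. In SOMB against SOMA the growth regulators Mycn and Myc differed in opposite directions, from 188 to 128 CPM for Mycn (−0.56) and from 57.9 to 91.0 for Myc (0.65), both called. Ddit4, an inhibitor of mTORC1 on the ATF4 list, was lower by −1.90, Phgdh of the same list was higher, and Pdcd4 was lower. In SOMD against SOMA Ddit4, Asns and Sesn2 were lower and Pck2 higher among 19 ATF4 targets tested, and Deptor and Rragd lower and Mtor higher among 16 genes of mTORC1. Single calls there were Eif2ak3 (higher), Mycn and Tars (lower), beside Dph2 and Mettl10 (lower). In SOMC against SOMB, SOMD against SOMC, MUT against WT and DIR against CTRL edgeR called 0 genes of all 9 lists. Of the 112 or 113 genes tested, 14, 7, 23 and 22 had an unadjusted p below 0.05 there, and DESeq2 called 0, 2, 8 and 1, beside 2.07%, 3.60%, 7.78% and 3.50% of all genes.

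No factor gene passed the threshold between cultures with and without LDN and SAG. In DIR against CTRL 0 of 51 were called by edgeR and 0 by DESeq2, with 10 at an unadjusted p below 0.05 by edgeR, beside 0.747% and 3.50% of all genes called by these tools. The median log2 difference was 0.14, against −0.01 over all genes, and 39 of 51 were positive. The same held for 63 of 76 ribosomal protein genes (median 0.17) and 19 of 22 aminoacyl-tRNA synthetases (median 0.24). Without DIR replicate 3, 32 of 51 factor genes were positive (median 0.09) but only 27 of 76 ribosomal protein genes (median −0.11). Libraries did not overlap between the groups for 7 factor genes higher in DIR and 2 lower, that is 13.7% and 3.92% of the 51, beside 5.00% and 4.27% of all genes.

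The lowest p belonged to Eif2b3, the gamma subunit of eIF2B, at 101, 82.0, 100 and 86.6 CPM in DIR and 76.0, 70.8, 64.4 and 53.9 in CTRL. The groups did not overlap, and the log2 difference of 0.47 ± 0.14 (SE, n = 4 and 4) had an adjusted p of 0.186 (edgeR). Eif1b stood at 105, 72.7, 115 and 88.8 in DIR and 61.0, 72.4, 70.2 and 59.0 in CTRL (0.52 ± 0.15, adjusted p = 0.188, edgeR), and its paralogue Eif1, which selects the start codon, at 625, 444, 534 and 513 against 388, 434, 388 and 368 (0.41 ± 0.13, adjusted p = 0.215, edgeR). DIR replicate 2 was the lowest in DIR for each of these 3 genes and for Eif1b nearly touched CTRL replicate 2. The lower genes without overlap were Eef2k and Eif4b, by −0.35 and −0.21 (adjusted p = 0.319 and 0.401, edgeR).

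By the share of alignments that were not unique, CTRL replicate 1 and DIR replicates 1 and 2 (22.3% or more) stood apart from the other 5 cultured libraries (19.5% or less). Within the former 38 of 51 differences of DIR from CTRL were positive and within the latter 42, with 47 of the same sign in both. In a fit of all 29 libraries 10 factor genes were called, all higher in DIR, beside 9.74% of all genes: Eef1e1, Eif1, Eif1ax, Eif1b, Eif2b1, Eif2b3, Eif2s1, Eif3c, Eif3e and Eif4e. That fit takes its spread from all groups.

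In the unsorted trunk, factor genes were on balance slightly higher in MUT than in WT. Of 51 genes 2 were called, both higher, beside 0.338% of all genes (0.331% higher). The median was 0.11, 41 were positive, and 20 had an unadjusted p below 0.05. Ribosomal protein genes showed a larger difference, with 13 of 76 higher and a median of 0.47. Libraries did not overlap for 19 factor genes higher in MUT (37.3% of the 51) and 3 lower (5.88%), beside 11.1% of all genes each way. Erythroid markers summed to 1477 to 2706 CPM in MUT and 970 to 2282 in WT, and their part in these differences was not tested.

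Eif3g (chromosome 9, 20894349 to 20898623), an RNA-binding subunit of eIF3, stood at 149, 147 and 143 CPM in MUT and 101, 104 and 90.9 in WT. The groups were far apart, with a log2 difference of 0.57 ± 0.07 (SE, n = 3 and 3, adjusted p = 0.0254, edgeR). Eef1b2 (chromosome 1, 63176825 to 63180486), the exchange subunit of eEF1B, stood at 289, 263 and 278 in MUT and 212, 228 and 208 in WT, also without overlap, by 0.36 ± 0.06 (adjusted p = 0.0486, edgeR). The call on Eif3g was lost without any of 5 libraries (all but WT replicate 3) and that on Eef1b2 without any of the 6, with adjusted p-values up to 0.132 and 0.173 (edgeR).

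Several more genes narrowly missed the threshold without overlap between the groups. Of these, Eef1d was higher by 0.53 (adjusted p = 0.0593, edgeR), Eif3i by 0.53 (0.0678), Eif3d by 0.30 (0.0697) and Eif3k by 0.58 (0.0703). Eif4g2 was lower, at 3319, 2943 and 3167 CPM in MUT against 3699, 3742 and 3977 in WT (−0.27, adjusted p = 0.0710, edgeR). Among the 12 eIF3 genes 11 were positive, with a median of 0.13, and 6 did not overlap; the exception was Eif3m at −0.31. DESeq2 called 9 of 51, 7 higher and 2 lower (7.78% of all genes).

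The differences went with transcript length. Spearman's rho of the log2 difference with transcript length was −0.432 over the 51 factor genes, −0.51 over the 12 of eIF3 and −0.355 over 14318 genes tested with a length. The 17 factor genes of 1000 to 2000 bases had a median of 0.22, the 23 of 2000 to 4000 bases 0.08 and the 10 of 4000 bases or more 0.07. Over all genes the medians in these bins were 0.13, 0.01 and −0.08. Genes of a library share its RNA and its preparation, and the part of length in the calls was not tested. In the other 6 comparisons rho over the factor genes ran from −0.284 (DIR against CTRL) to 0.42 (SOMC against SOMB).

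**Figure D5:**
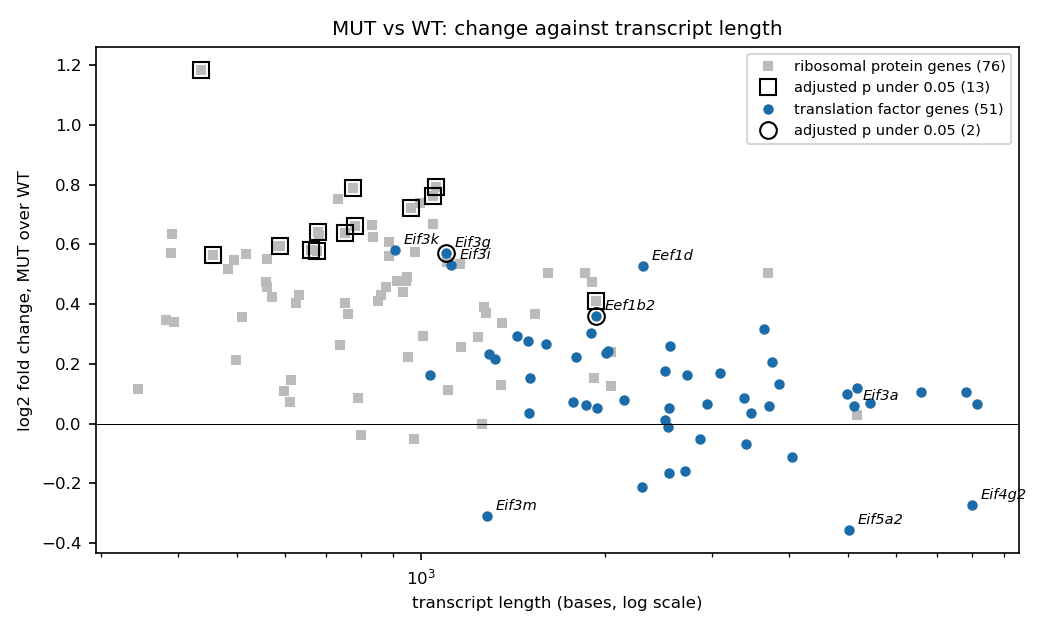
Log2 fold change of MUT over WT against transcript length (bases, log scale), with 1 point per factor or ribosomal protein gene and open circles around genes with an adjusted p below 0.05. Shorter factor genes lie higher, with a rho of −0.432 over 51 genes.

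RNAs that depend on sex differed between the MUT libraries. Xist, the RNA of the inactive X, stood at 2.14, 1802 and 1810 CPM in MUT and 2.98, 3.49 and 10.8 in WT, and the Y-linked Ddx3y at 103, 0.535 and 0.236 against 107, 110 and 121. The X-linked Eif2s3x, the gamma subunit of eIF2, which escapes X inactivation, followed them at 112, 185 and 177 in MUT and 128, 133 and 120 in WT. Its library with low Xist, MUT replicate 1, lay below all WT libraries and the other 2 MUT libraries above them. Between that 1 library and WT, Eif3g differed by 0.60 and Eef1b2 by 0.42, values on which a single library allows no test to be read.

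Over the 8 groups the means ranged widest in a few members. The 6 members with the widest range of group means were Eef1g (1826 CPM in DIR and 175 in WT, 10.5-fold), Eef1b2 (1560 and 216, 7.23-fold), Eif3h (467 and 91.8, 5.09-fold), Eef1d (472 and 115, 4.11-fold), Eif4a1 (1891 and 521, 3.63-fold) and the Argonaute gene Eif2c4 (5.57 in CTRL and 1.89 in WT, 2.95-fold). Each was lowest in WT, and 3 of the 4 eEF1B genes were among them. Against the mean of the SOM groups, WT was lower 7.96-fold for Eef1g, 4.30-fold for Eef1b2 and 3.24-fold for Eif3h. For Eef1d it was lower 3.76-fold and for Eif4a1 3.46-fold. Eif2c4 ranked by its level in CTRL, with means of 2.15 to 3.08 CPM in the SOM groups. Eef1g shares 64.3% and Eif4a1 65.3% of their transcript words of 50 bases with other genes, such as processed pseudogenes, Eif3h 26.2%, Eef1d 17.3% and Eef1b2 5.98%. Reads of the first 3 could be split or dropped as not unique, so their levels are uncertain. Over the 10 genes with at least 20% of shared words the median log2 ratio of WT to the sorted SOM libraries was −0.85 (from −2.99 to 0.86), and over the other 41 it was −0.35. Trunk libraries were made from whole tissue and held more alignments that were not unique, so tissue, handling and counting cannot be told apart, and no test was made.

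Ratios of paralogues do not depend on the scaling of a library. For 6 pairs in 7 comparisons, 42 in all, an exact two-sided permutation test over libraries gave 0 ratios at an adjusted p below 0.05 (smallest adjusted p 0.24), and the groups did not overlap in 9, of which 1 (Eef1a2 to Eef1a1 in MUT against WT) has 0 counts of Eef1a2 in every library and is void. The smallest p that the test can give is 0.0286 with 4 against 3 or 4 libraries and 0.1 for MUT against WT, so the design could hardly pass the threshold after adjustment. The ratio of Eif4e3 to Eif4e was 0.0956 in SOMA, 0.0719 in SOMB, 0.0674 in SOMC and 0.0629 in SOMD, a log2 difference of −0.60 between the ends without overlap (exact permutation p = 0.0286, adjusted 0.24). That of Eif5a2 to Eif5a was 0.0248 in SOMA and 0.0194 in SOMD, without overlap, and 0.0355 in WT against 0.0229 in MUT.

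In culture other ratios stood apart. The scaffold pair Eif4g3 to Eif4g1 had a ratio of 0.248 in CTRL and 0.174 in SOMA, and Eif1b to Eif1 one of 0.166 and 0.224, each without overlap (exact permutation p = 0.0286, adjusted 0.24). The helicase pair Eif4a2 to Eif4a1 had a ratio of 0.248 in SOMA, 0.372 in CTRL and 0.682 in WT. For this pair CTRL and SOMA overlapped (exact permutation p = 0.114, adjusted 0.4), and the shared words of Eif4a1 limit the ratio. Eef1a2 was at the floor in all groups, and its ratio to Eef1a1 is not read.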

How the data were processed

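The authors deposited integer counts of aligned reads per gene, with 5 HTSeq summary lines per file that were taken out of the gene counts; the libraries held 11541131 to 44363411 gene counts. The tools named in the submitters' processing notes are HTSeq 0.6, TopHat2 2.0.9, DESeq2 1.10 and Cufflinks, with mm10. No annotation or strand setting is given in the sources used here, and the TruSeq kit with 11 rounds of PCR does not mark strand, per the labels, so overlapping and antisense genes cannot be told apart.

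Low genes were dropped with filterByExpr of edgeR 4.0.16 (R 4.3.3), at a minimum total of 15 and a minimum count of 10; TMM factors and quasi-likelihood tests with a prior count of 0.125 followed, with Benjamini-Hochberg adjustment over all genes tested and a threshold of 0.05. The 4 SOM groups shared 1 fit, and DIR with CTRL, MUT with WT and CTRL with SOMA had a fit each. Transcript lengths, coordinates and shared words of 50 bases came from GENCODE M21 (22859 of 23337 symbols with a length), and start sites from RefSeq (43 of 54 factor genes in its table). The transcript taken for each gene was the longest linked to a RefSeq mRNA, where any was. Paralogue ratios were taken with a pseudocount of 0.5 counts and tested by exact two-sided permutation over libraries. Spearman's rho was computed in SciPy 1.17.1.

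The members, lists, comparisons and alternatives were chosen with earlier results of these data known. Named genes are, by rule, the subunits of each complex and the members past the threshold with the lowest p (at most 8 per comparison). Added were the paralogue pairs, the 6 members with the widest range of group means and at most 3 called genes per list and comparison. Further genes called in CTRL against SOMA (Eif5a, Eif4a1 and Eif1b) and those that missed the threshold were named after their values were seen. So were those called only under an alternative, Eif4ebp1, and Pck2 in SOMD against SOMA.

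Replicate numbers were taken to pair samples where every same-number pair had a correlation over 0.1 between deviations from the group means over genes. This held in SOMB against SOMA (0.427 to 0.48, 3 pairs) and SOMD against SOMC (0.408 to 0.523, 4 pairs), and every library there correlated best with its own number; the pairing comes from the data. Alternatives were DESeq2 1.42.0, RLE size factors, unscaled library totals, no filter, a pseudocount of 5 counts for the ratios, the replicate block, 1 fit of all libraries, each library left out, the share of alignments that were not unique as a term and nearly identical libraries summed; the no-feature term, the block with the 2 groups alone and the libraries low in Xist were added after seeing the data.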

Additional observations from a re-analysis of the deposited data

Results flagged for a closer look

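In 24 genes that the text names, 120 groups of 4 libraries were searched for a library far from the other 3. The search found 6, no more than the about 1 in 20 groups that chance gives. Genes read in the same library are not independent of each other. In CTRL, Eef1d stood at 342.6 CPM in replicate 2 against 288.9 to 291.8 in the others, and Eif3f at 264.8 in replicate 1 against 313.1 to 322.4. Eif3b stood at 433.1 CPM in DIR replicate 3 against 355.9 to 367.2. SOMC replicate 3 held the other three. In it Eef1a1 stood at 10010 CPM against 7886 to 8224 in the other SOMC libraries, Eif4e at 304 against 262.4 to 268.1, and Eif4g3 at 215.4, lower than the 267.9 to 276.3 of the others. Of those others, replicates 1 and 4 are nearly the same library, which narrows the range that SOMC replicate 3 is set against.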

How the results depend on the processing

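The counts of called factor genes were unstable, and the share of all genes called in the same fit is given in parentheses. No factor gene called in the reported fits turned its direction under these alternatives, but the balance of uncalled genes did: 13 of 51 were positive in SOMB against SOMA and 23 in SOMC against SOMB with the no-feature term, against 34 and 5, and 29 in SOMD against SOMC without SOMC replicate 3, against 14. In DIR against CTRL the fit of all 29 libraries called 10 genes (9.74%) against 0. In SOMB against SOMA library totals without scaling and DESeq2 called 2 each (8.35% and 10.3%), and the no-feature term 5 (12.3%), against 1. In SOMD against SOMA the no-feature term called 7 (26.5%), and summing nearly identical libraries or fitting all 29 libraries called 1 each (15.1% and 13.3%), against 2. In MUT against WT RLE size factors called 1 (0.311%), no filter 5 (1.08%), DESeq2 9 (7.78%), the fit of all 29 libraries 0 (0.138%) and the libraries low in Xist 0 (0.00653%), against 2. In CTRL against SOMA DESeq2 called 18 (25.1%), the term for alignments that were not unique 23 (33.7%) and the fit of all 29 libraries 23 (29.4%), against 11 (20.8%). Leaving out 1 library at a time gave 0 in DIR against CTRL, 0 to 2 in SOMB against SOMA, 0 in SOMC against SOMB and SOMD against SOMC, 1 to 4 in SOMD against SOMA, 0 to 3 in MUT against WT, 3 to 25 in CTRL against SOMA, and 0 for the paralogue ratios. The lone MUT library low in Xist was assumed to vary as WT does, and its count of 0 is not read. The cause of these shifts was not tested.

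With the replicate number as a block and the 2 groups alone, 5 genes were called in SOMB against SOMA (18.3%) and 6 in SOMD against SOMC (16.4%). In the other comparisons the samples share only a number, with same-number correlations of −0.65 to 0.80 in DIR against CTRL, −0.27 to 0.45 in SOMC against SOMB, −0.21 to 0.34 in SOMD against SOMA, −0.00096 to 0.36 in MUT against WT and −0.23 to 0.067 in CTRL against SOMA. There 3 of 8, 1 of 8, 2 of 6, 4 of 6 and 1 of 6 libraries correlated best with their own number, and the block called 0 (1.80%), 0 (1.30%), 2 (20.8%), 7 (2.26%) and 2 (Eef2k and Eif3b, beside 990 of 14137 genes). Eef1a2 and Eif4e1b, at 3 counts or fewer in every library, did not pass the filter on low counts.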
